A study of Mus musculus with 6 samples.

Results

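Carbonic anhydrases are zinc enzymes that turn carbon dioxide and water into bicarbonate and a proton, and back. The isoforms differ mainly in where they sit: in the cytosol (Car1, Car2, Car3, Car13), in mitochondria (Car5b), on the outer cell membrane (Car4, Car9, Car12) or outside the cell (Car6), while Car8 has lost the enzyme activity. In blood the family is best known from red cells, which carry carbon dioxide with Car1 and Car2, and from osteoclasts, which acidify bone with Car2. Because isoforms are strongly tissue-restricted, their transcripts also serve as markers of particular cells.

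The 10 genes described here, Car1, Car2, Car3, Car4, Car5b, Car6, Car8, Car9, Car12 and Car13, were chosen by family membership, of 18193 genes with a symbol of their own on the arrays. They were proposed with differences between these same arrays in view, so their differences are given as a description, with no test. The arrays carry 21 probe sets for them, each a group of short oligonucleotides against 1 transcript region, and 9 probe sets for 6 other family genes.

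RNA came from bone marrow cells of mice aged 2 to 3 weeks, sorted as lacking lineage markers and carrying Sca1, a gate enriched for haematopoietic stem cells. There were 3 arrays of wild-type (WT) cells and 3 of cells from double knockout (DKO) mice, null for both Nr4a1 and Nr4a3, a pair of related nuclear receptors. The RNA of each array was that of a pool of 10 to 20 mice, so replicates are pools. DKO mice were bred from the 2 single mutants on a mixed C57BL/6 and 129SvJ background, and the labels give no strain for WT and no sex for either group. The comparison asks which transcripts of these cells depend on the 2 receptors.

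The values are MAS5 signals, linear intensities scaled by the authors to a trimmed mean of 500 on every array, and median signals lay between 91.7 and 122.6. Nr4a1 signal was 816 to 1269 in WT and 8.0 to 33.8 in DKO, while the 3 Nr4a3 probe sets were dimmer, and their means lay in the lowest 40% of all probe sets. The brightest of them in WT read 129, 145 and 22.6 there and 6.9 to 25.9 in DKO, and another read 40.4 to 61.8 and 0.6 to 20.9. The remaining Nr4a3 probe set overlapped between the groups, at 63.7, 44.3 and 50.8 in WT and 60.9, 59.4 and 21.2 in DKO (-0.19 ± 0.51, SE). Kit (2419 to 2963 in WT, 1679 to 1968 in DKO), Cd34 (3136 to 3761 and 1820 to 2269) and Ptprc, the pan-leukocyte gene (8130 to 9434 and 9282 to 11590), were present on all arrays; Sca1 itself was not analysed here. WT replicate 2 stood apart: its summed signal over 22 erythroid genes was 95127, against 38056 and 20406 in WT replicates 1 and 3 and 22932 to 27339 in DKO. Its neutrophil and B lineage sums were also the highest of the 6 arrays. With bulk RNA, fewer cells of a type and less RNA per cell cannot be told apart.

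Isoforms differed between the groups in opposite directions. Car4, Car1 and Car12 were higher in DKO and Car2 and Car5b lower, with no overlap between groups at the brightest probe set of each, while Car3, Car9 and Car13 overlapped at theirs and Car6 and Car8 were dim on all their probe sets. Over the 21 probe sets 13 were higher and 8 lower, with a median log2 difference, DKO minus WT, of 0.26. Over all probe sets of the arrays the median was -0.03. Those counts say little by themselves, since 10 of the 21 probe sets had mean log2(signal + 16) values in the lowest 40% of all, a limit that equals a signal of about 53.2. The 11 above the limit covered 8 of the 10 genes, 5 of them higher and 6 lower, with a median of -0.15 against -0.05 over all 27022 probe sets above it. A gene dim in WT can pass that limit only through its DKO signals, as Car4 did.

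**Figure D1:**
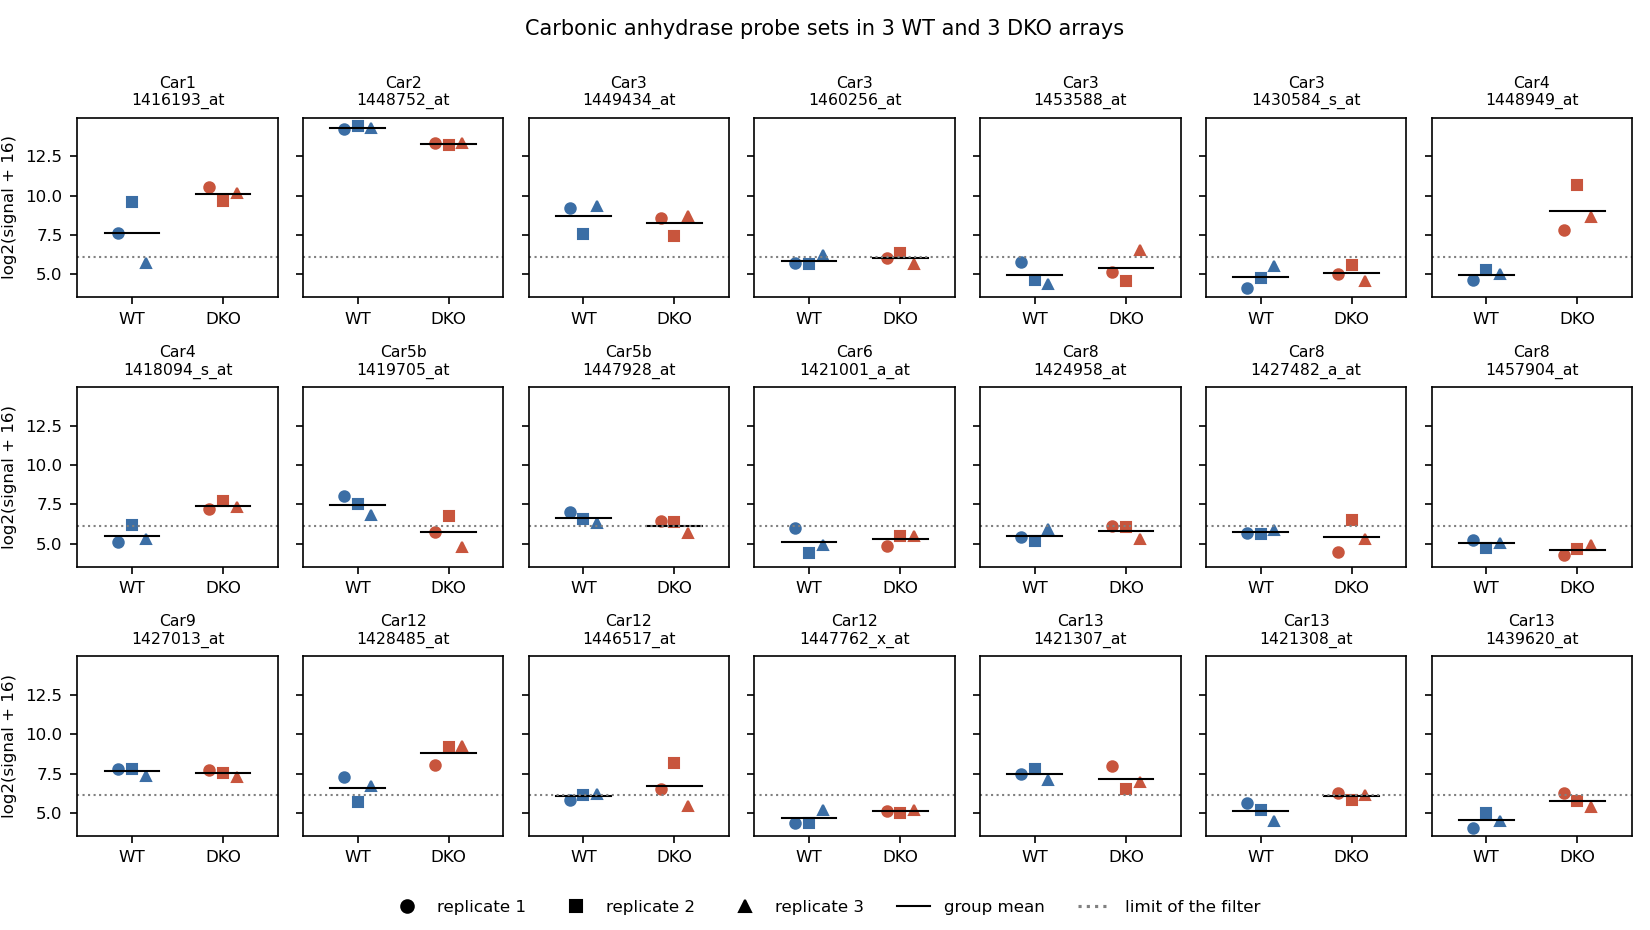
Each panel is 1 of the 21 probe sets of the 10 carbonic anhydrase genes; the vertical axis is log2(signal + 16), points are the 3 WT (blue) and 3 DKO (red) arrays with the replicate as the symbol, bars are group means and the dotted line is the limit of the filter on low values. Car2 separates the groups tightly near the top of the scale, Car4 at its brighter probe set lies below the limit in all WT arrays and above it in all DKO arrays, and most Car3, Car6 and Car8 probe sets stay near or under the limit in both groups.

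Every DKO array lay above every WT array at 6 of the 21 probe sets, and every DKO array below at 2. Of all 45037 probe sets this held for 7.70% (above) and 8.68% (below). Of the 6, 2 are Car13 probe sets below the limit. In the limma fit over all probe sets above the limit, 1 carbonic anhydrase probe set was past an adjusted p of 0.05 in the higher direction (Car4) and 1 in the lower (Car2), where 0.807% and 0.563% of all tested probe sets were. Without DKO replicate 3 Car4 was no longer past it, and in a fit without an intensity trend neither was. Without WT replicate 2 there were 3 in the higher direction, Car1 and both of Car4. Car12 was past it in 4 settings: an offset of 64, quantile normalization, median centring and a filter on the lowest 60%, which left Car4 out. Since the genes were proposed with this contrast known, nothing is read from these shares.

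RefSeq promoter sequences (GRCm38.p6) were matched for Car4, Car5b, Car6, Car9 and Car12, 5 of the 10 genes. The 250 bases before the transcription start are shown for the isoforms with the highest and the lowest difference between the groups. They are also shown for Car9, the isoform most used as a sign of hypoxia. They were searched on both strands for the element bound by single NR4A receptors (AAAGGTCA), for GATA elements (AGATAA and AGATAG as well as TGATAA and TGATAG) and for the core of the HIF element (ACGTG or GCGTG), and capitals mark the matches. The first lies at chr11:84957504-84957753 on the plus strand, the second at chrX:164028011-164028260 on the minus strand and the third at chr4:43506776-43507025 on the plus strand.
Car4: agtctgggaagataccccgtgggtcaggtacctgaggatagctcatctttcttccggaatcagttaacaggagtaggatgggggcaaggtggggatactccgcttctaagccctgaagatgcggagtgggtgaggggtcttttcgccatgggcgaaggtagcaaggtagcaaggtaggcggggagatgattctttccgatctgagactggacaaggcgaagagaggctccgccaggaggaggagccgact
Car5b: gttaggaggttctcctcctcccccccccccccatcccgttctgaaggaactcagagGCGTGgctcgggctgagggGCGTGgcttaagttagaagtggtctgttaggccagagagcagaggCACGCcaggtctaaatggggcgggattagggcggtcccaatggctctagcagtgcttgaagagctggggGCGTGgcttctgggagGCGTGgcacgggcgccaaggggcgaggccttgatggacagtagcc
Car9: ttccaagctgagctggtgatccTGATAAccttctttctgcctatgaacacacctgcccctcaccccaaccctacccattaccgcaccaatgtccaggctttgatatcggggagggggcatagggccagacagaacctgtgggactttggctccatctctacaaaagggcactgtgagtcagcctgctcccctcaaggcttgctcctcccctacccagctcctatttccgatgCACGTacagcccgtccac

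The NR4A element was in 0 of the 5 windows, and in 1.34% of 32851 windows of the same length in the table. A GATA element was in 1 of the 5, that of Car9, against 26.5% of all. The HIF core was in 3 of the 5, against 38.6%: 5 matches in Car5b, 2 overlapping ones on opposite strands in Car6 and 1 in Car9, which starts 18 bases before the start site. Car4 and Car12 held none of the 3. A match is a matter of letters alone, and its absence says only that the letters are not in that window.

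Among the cytosolic enzymes, Car2 gave the brightest and tightest values. It is the fast isoform of red cells, osteoclasts and kidney. Its signal was 19119, 22454 and 20559 in the 3 WT arrays and 10287, 9766 and 10222 in the 3 DKO arrays. All DKO values lay near the same level, and the lowest WT value was well above the highest DKO value. The mean was 20710 ± 1672 (SD, n = 3) in WT and 10091 ± 284 (n = 3) in DKO, a log2 difference of -1.03 ± 0.12 (SE). With any 1 array left out it stayed between -1.09 and -0.97.

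WT replicate 2, the pool with by far the most erythroid signal, had the highest Car2 value. Without it the Car2 difference was -0.97, and the part of erythroid transcripts in it was not tested. The haematopoietic stem cell list was lower in DKO, as Car2 was. Of 22 measured stem cell genes 18 were lower in DKO and 7 fell past the threshold, with 0 rising and a median of -1.06, against 0.633% of all 11529 genes falling and 1.08% rising. Mecom, a regulator of stem cell maintenance, fell by 1.66 on the log2 scale (-1.66 ± 0.22, adjusted p = 0.00390 in the limma fit), and Mllt3, Hlf and Procr changed by -1.29, -1.33 and -1.66 (adjusted p = 0.00458, 0.00936 and 0.0111). The summed signal of the stem cell list was 41941 to 49800 in WT and 20826 to 24619 in DKO. Within WT that sum was lowest in replicate 2, where Car2 was highest. The B lineage sums (4240 to 13109 in WT and 2186 to 2708 in DKO) were also lower in DKO without overlap. So were the endothelial sums (5910 to 7901 and 3806 to 4697). The part of these lists in the Car2 difference was not tested.

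The genes with profiles most like that of Car2 over the 6 arrays, by the root mean square difference of centred log2 values among 11528 other genes, were Lax1, an adaptor of lymphocyte signalling, at 0.06, the RNA-binding protein gene Rbpms at 0.09 and Card6 at 0.09. Rbpms is on the stem cell list. Its signal was 639, 739 and 726 in WT and 378, 301 and 315 in DKO. Lax1 lay at 1047, 1169 and 1024 in WT and 506, 536 and 541 in DKO. As with Car2, both were at about the same level on all 3 arrays of a group. Likeness over 6 arrays in 2 groups includes the group difference itself.

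Car1, the other main cytosolic isoform of red cells, went the other way. Its signal was 179, 751 and 36.1 in WT and 1458, 788 and 1124 in DKO. The groups did not overlap, but WT replicate 2 came close to the lowest DKO array. On the log2(signal + 16) scale the WT pools spread more widely than the DKO pools, while on the signal scale the spreads were alike. The means were 322 ± 378 (SD, n = 3) and 1123 ± 335 (n = 3), and the log2 difference was 2.48 ± 0.73 (SE). It was 3.45 without WT replicate 2 and 1.51 without WT replicate 3. Car1 and Car2 are neighbours on chromosome 3, where RefSeq (GRCm38.p6) lists Car13, Car1, Car3 and Car2 one after another with 0 protein-coding genes between them. Of these 4 neighbours, at the brightest probe set, Car1 was the 1 that was higher in DKO without overlap and Car2 the 1 that was lower without overlap.

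Within WT, where the genotype plays no part, the order of Car1 over the pools was replicate 2, then 1, then 3. The erythroid and the eosinophil summed signals had the same order there, at 95127, 38056 and 20406, and at 16319, 4246 and 2166. So had the sums of the neutrophil (98188, 41868 and 19305), monocyte (26456, 10123 and 8369), B lineage (13109, 4376 and 4240) and osteoclast (6724, 4071 and 3211) lists, so that order is not particular to any of them. The erythroid and eosinophil lists parted in DKO. The erythroid list stood at 22932 to 27339 in DKO, below WT replicates 1 and 2 but above WT replicate 3. Of its 20 tested genes 17 were lower, with a median of -0.85 and 0 past the threshold in limma (8 at an unadjusted p under 0.05). Hemgn, a nuclear protein of red cell precursors, changed by -1.25 ± 0.31 (adjusted p = 0.0834), and Gata1, the master factor of red cells that eosinophils and mast cells also use, by 1.27 ± 0.34 (adjusted p = 0.0981).

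The eosinophil list stood at 34765 to 41005 in DKO, above every WT pool, and all 8 tested of the 9 genes on the arrays were higher. Of these 5 rose past the threshold and 0 fell, with a median of 2.98. Siglecf, an eosinophil surface lectin, rose by 3.34 ± 0.25 (adjusted p = 6.87e-05), the lipoxygenase gene Alox15 by 3.70 ± 0.44 (adjusted p = 0.00207), the eotaxin receptor gene Ccr3 by 3.07 ± 0.55 (adjusted p = 0.0196) and Adgre4 by 1.94 ± 0.37 (adjusted p = 0.0260). Ccr3 was at 4.4, 43.0 and 3.4 in WT and passed the filter through its DKO signals. Rnase2a, the 1 gene below the limit, was at most 17.0 on any array.

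The profile most like that of Car1 was that of Adam8, a metalloproteinase gene of leukocytes, at a root mean square difference of 0.31. Its signal was 83.9, 214 and 2.9 in WT and 543, 279 and 278 in DKO. Next came Prg2, also at 0.31, and Prg3, at 0.38, which encode major basic proteins of eosinophil granules. Prg2 signal was 2188, 9998 and 941 in WT and 15941, 14851 and 17485 in DKO. Prg3 signal was 478, 1639 and 69.6 in WT and 3523, 3170 and 2549 in DKO. Both Prg2 and Prg3 had the order of Car1 within WT and lay above every WT pool in all 3 DKO pools. Slc4a1, the anion exchanger of the red cell membrane, shared the WT order (9953, 25112 and 2093) but was low in DKO (2677, 1613 and 1106). In mean centred log2 level, the eosinophil list and the basophil and mast cell list both had the order of Car1 over all 6 arrays. In that measure WT replicates 1 and 3 of the basophil and mast cell list were close, at -1.21 and -1.22. By summed signal neither list had the order of Car1. The eosinophil sums in DKO were 38574, 34765 and 41005, highest in replicate 3. The basophil and mast cell sums in WT were 4714, 4392 and 4748, lowest in replicate 2. The part of eosinophil, basophil, mast cell or erythroid transcripts in the Car1 values was not tested.

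**Figure D2:**
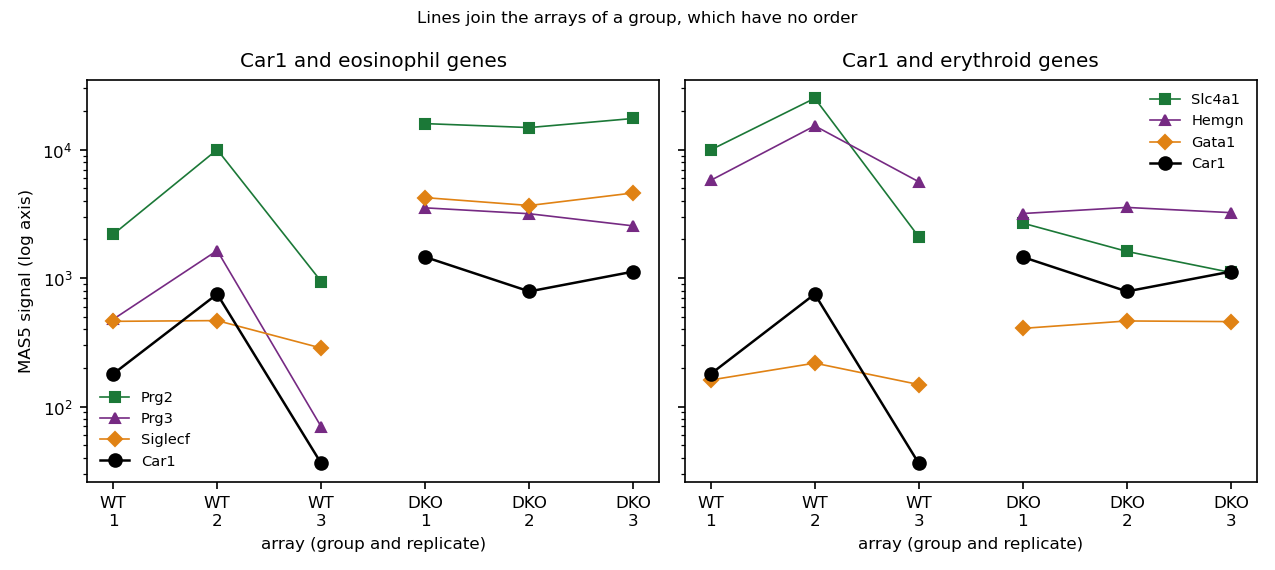
MAS5 signal on a log axis by array, Car1 in black on both sides, with the eosinophil genes Prg2, Prg3 and Siglecf on the left and the erythroid genes Slc4a1, Hemgn and Gata1 on the right. All of them peak in WT replicate 2 within WT. In DKO Car1, the eosinophil genes and Gata1 lie above every WT array, while Hemgn lies below every WT array. Slc4a1 is low in DKO but overlaps, with DKO replicate 1 above WT replicate 3.

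Car3, a slow isoform of skeletal muscle and fat, differed more between pools than between groups. Its brightest probe set read 566, 171 and 631 in WT and 366, 158 and 396 in DKO. The groups overlapped, and replicate 2 was the lowest pool of each. The log2 difference was -0.45 ± 0.51 (SE), with values from -1.03 to -0.06 when 1 array was left out. The 3 other Car3 probe sets were below the limit, with no signal above 78.4 on any array and differences of 0.14, 0.26 and 0.50. Of 12 skeletal muscle genes 9 were below the limit too, and their summed signal was 618 to 820 in WT and 460 to 631 in DKO, with 0 of 3 tested genes past the threshold in limma (0 at an unadjusted p under 0.05). The adipocyte sums overlapped, at 1136 to 6904 and 3811 to 8026. The nearest profiles to Car3 were Oxld1 and the potassium channel gene Kcnd1, both at 0.21, and Ankzf1 at 0.22, each lowest in replicate 2 of both groups.

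Car13, a cytosolic isoform found in several tissues, had probe sets that disagreed in sign. The brightest read 158, 208 and 119 in WT and 239, 74.3 and 106 in DKO, and the groups overlapped (-0.30 ± 0.47). The other 2 read at most 32.9 in WT and 24.8 to 61.7 in DKO, without overlap (0.98 ± 0.47 and 1.27 ± 0.42), but both lay under the limit of the filter. No direction can be given for the gene. The nearest profiles to its brightest probe set were Zfp33b at 0.06 and the chemokine receptor-like gene Ccrl2 and Fam169a, both at 0.10.

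Car4, a fast isoform held on the outer face of the membrane by a lipid anchor and known from lung capillaries, kidney and activated mouse eosinophils, showed the largest difference of the 21 probe sets. At its brighter probe set the signal was 9.3, 22.8 and 16.2 in WT and 210, 1602 and 379 in DKO. All WT values were far below the limit, and the DKO pools spread widely, with replicate 2 far above the others. The means were 16.1 ± 6.8 (SD, n = 3) and 730 ± 759 (n = 3), and the log2 difference was 4.05 ± 0.64 (SE). With WT signals this low, the size depends on the offset added before the log, and was 4.97 with an offset of 1 and 2.88 with 64. Without DKO replicate 2 it was 3.24.

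The second Car4 probe set, of a type that can bind more than 1 transcript, read 18.3, 56.1 and 22.3 in WT and 128, 196 and 146 in DKO. It too had no overlap, with DKO replicate 2 the highest pool and WT replicate 2 the highest within WT (1.90 ± 0.47). The genes most like Car4 over the arrays were Tbx21, a transcription factor of type 1 lymphocytes, at a root mean square difference of 0.78, the lipase gene Lipg at 0.79 and the immunoglobulin J chain gene Jchain at 0.80. Those distances were larger than for any other isoform. Lipg was at 1.8, 30.6 and 46.6 in WT and passed the filter through its DKO signals. These, at 458, 761 and 671, had the order of the Car4 DKO pools. Tbx21 (462, 1025 and 1442) and Jchain (3620, 8134 and 12066) instead were highest in DKO replicate 3.

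Several cell type lists were high in DKO together with Car4. Besides the eosinophil list these were the basophil and mast cell list (4392 to 4748 in WT and 10751 to 13889 in DKO, 5 of 9 tested genes rising and 0 falling), the T and NK cell list (5064 to 5718 and 14079 to 19912, 8 of 17 rising and 0 falling) and the plasma cell list (4476 to 6731 and 20960 to 51303, 2 of 8 rising and 0 falling). In the basophil and mast cell list Cma1, Tpsb2, Gata2 and Kit did not pass the threshold, with differences of 0.08, 0.65, 0.18 and -0.60. In the plasma cell list 5 of 8 were higher and 3 lower, with a median of 0.47. Most of its DKO sum was the signal of Igha (14041, 23732 and 32172) and Jchain. Endothelial transcripts, from the other cell type known for Car4, went the other way, with 12 of 15 tested genes lower, 1 fall and 0 rises, and sums of 5910 to 7901 in WT and 3806 to 4697 in DKO. The largest rises of these 3 lists were those of Ms4a2, a chain of the IgE receptor (5.38 ± 0.33, adjusted p = 1.59e-05), and of the immunoglobulin A gene Igha (4.99 ± 0.40, adjusted p = 1.16e-04). Mcpt8, Cpa3 and Fcer1a of the basophil and mast cell list rose by 3.88, 3.65 and 2.94. In the T and NK cell list Gzmb, Tbx21, Gzma and Ccl5 rose by 4.72, 4.13, 4.06 and 2.95, and in the plasma cell list Jchain by 4.13. Among the genes named from these 3 lists, Fcer1a (4.9 to 16.6 in WT), Gzmb (1.4 to 38.5) and Tbx21 (13.6 to 58.4) passed the filter through their DKO signals. Genes as dim as these in WT could be counted among the rises but not among the falls. The endothelial fall was that of Emcn, an endothelial sialomucin that stem cells also carry (-1.95 ± 0.35, adjusted p = 0.0206). DKO replicate 2, the pool with the most Car4, had the lowest DKO sum of the eosinophil and of the basophil and mast cell list and the middle one of the T and NK cell and plasma cell lists. Their part in the Car4 values was not tested.

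**Figure D3:**
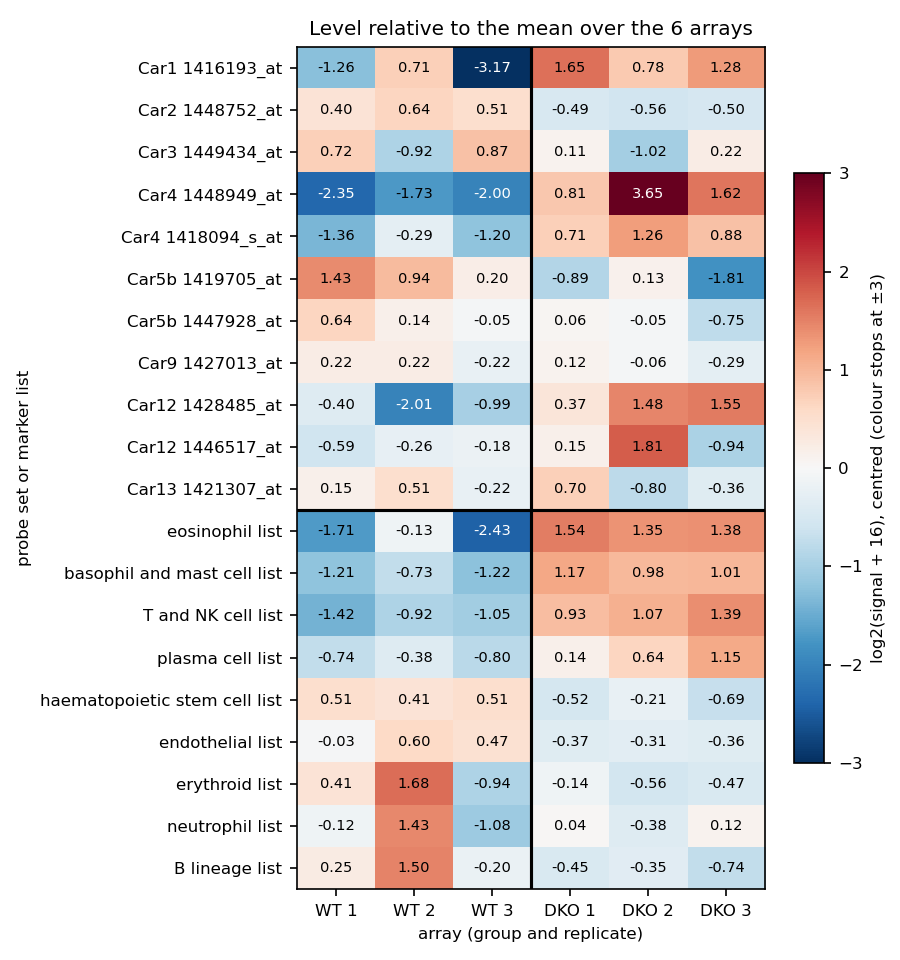
Level of each carbonic anhydrase probe set above the filter limit (upper 11 rows) and mean level of 9 cell type lists (lower rows) on each array, as log2(signal + 16) minus the mean over the 6 arrays. Car4 in DKO replicate 2 stands at 3.65. In this measure, though not by summed signal, the eosinophil list and the basophil and mast cell list have the order of Car1 over all arrays. The lowest Car1 value, -3.17, is in WT replicate 3, and the erythroid, neutrophil and B lineage lists peak in WT replicate 2.

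Car12, a transmembrane isoform of kidney and gut epithelium that hypoxia can induce, was higher at its brightest probe set. It read 141, 35.3 and 88.6 in WT and 252, 560 and 590 in DKO. The groups did not overlap, and WT replicate 2 was the lowest of all arrays, while it was the highest WT pool for Car1. The means were 88.4 ± 53.0 (SD, n = 3) and 468 ± 187 (n = 3), with a log2 difference of 2.27 ± 0.50 (SE) that stayed between 1.82 and 2.65 with any 1 array left out. The second probe set read 39.4, 54.0 and 57.8 in WT and 76.8, 278 and 27.6 in DKO, so its difference of 0.68 ± 0.63 rested on DKO replicate 2, and without that array it was -0.05. The third was below the limit (0.44 ± 0.34, at most 20.9). The nearest profiles to Car12 were those of Dmp1, a matrix protein gene of bone, at 0.35, the ubiquitin ligase gene Mid1 at 0.38 and 9330175E14Rik at 0.46. Dmp1 was dim in WT, at 24.1, 1.5 and 14.7, and passed the filter through its DKO signals of 70.2, 303 and 196. Mid1 was the brightest of the nearest genes, at 1557, 926 and 929 in WT and 3467, 4794 and 6184 in DKO.

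Car9, the transmembrane isoform most used as a sign of hypoxia, did not separate the groups. It read 208, 208 and 149 in WT and 192, 169 and 141 in DKO. All 6 arrays lay within a narrow range (-0.15 ± 0.38). Of 20 tested genes induced by the hypoxia factor HIF, 13 were higher in DKO and 0 were past the threshold in limma (5 at an unadjusted p under 0.05), with a median of 0.11. The smallest p-values were those of the glycolytic genes Ldha (0.74 ± 0.17, adjusted p = 0.0650) and Aldoa (0.71 ± 0.17, adjusted p = 0.0729).

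Car5b, the isoform of the mitochondrial matrix, was lower at its brighter probe set. It read 247, 171 and 96.0 in WT and 36.7, 91.1 and 11.8 in DKO. The groups did not overlap, though WT replicate 3 and DKO replicate 2 were close. The means were 171 ± 75 (SD, n = 3) and 46.5 ± 40.6 (n = 3), and the log2 difference was -1.71 ± 0.57 (SE), from -2.21 to -1.23 with 1 array left out. At the other probe set the difference was about as large as its error and the groups overlapped (115, 76.8 and 65.0 against 71.8, 65.2 and 33.9, -0.49 ± 0.46).

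Car5b lies on the X chromosome, and the order of the pools within each group at its brighter probe set, though not at the other in DKO, was also that of Xist, the RNA of the inactive X. The brightest Xist probe set read 9193, 5014 and 1921 in WT and 5081, 6276 and 3900 in DKO. Its groups overlapped. The Y-linked gene Kdm5d read 1578, 1145 and 1580 in WT and 857, 410 and 899 in DKO at its brightest probe set, without overlap (-1.04 ± 0.32, adjusted p = 0.151 in limma), and its other 2 probe sets were lower with overlap (-0.62 ± 0.35 and -0.96 ± 0.53). Those of Eif2s3y, also Y-linked, overlapped (-0.08 ± 0.28 and -0.61 ± 0.33). The part of the sex of the pooled mice in the Car5b values was not tested. The nearest profiles to Car5b were Rag2, a recombinase subunit of lymphocyte precursors, at 0.13, Cage1 at 0.27 and the Notch target Hey1 at 0.29. Rag2 read 343, 291 and 142 in WT and 74.4, 161 and 31.5 in DKO, in the order of Car5b over all arrays but for the neighbouring pools WT replicate 3 and DKO replicate 2. All 12 tested B lineage genes had lower values in DKO, with 1 fall and 0 rises (Cd72, -2.32 ± 0.38, adjusted p = 0.0117). Their summed signal was 4376, 13109 and 4240 in WT and 2682, 2708 and 2186 in DKO, and its part in the Car5b values was not tested.

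Car6, the secreted isoform of saliva, and Car8, the inactive isoform known from cerebellar Purkinje cells, were dim. The Car6 probe set read 5.2 to 48.7 in WT and 13.0 to 29.1 in DKO (0.16 ± 0.48). The 3 Car8 probe sets read at most 45.0 in WT and 73.3 in DKO, with differences of 0.31, -0.29 and -0.42 and overlap at each. The members closest to the limit were Car12 at its second probe set, at a mean log2 value of 6.38 just above it, and Car3 at the brightest of its dim probe sets, at 5.94 just below it.

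**Figure D4:**
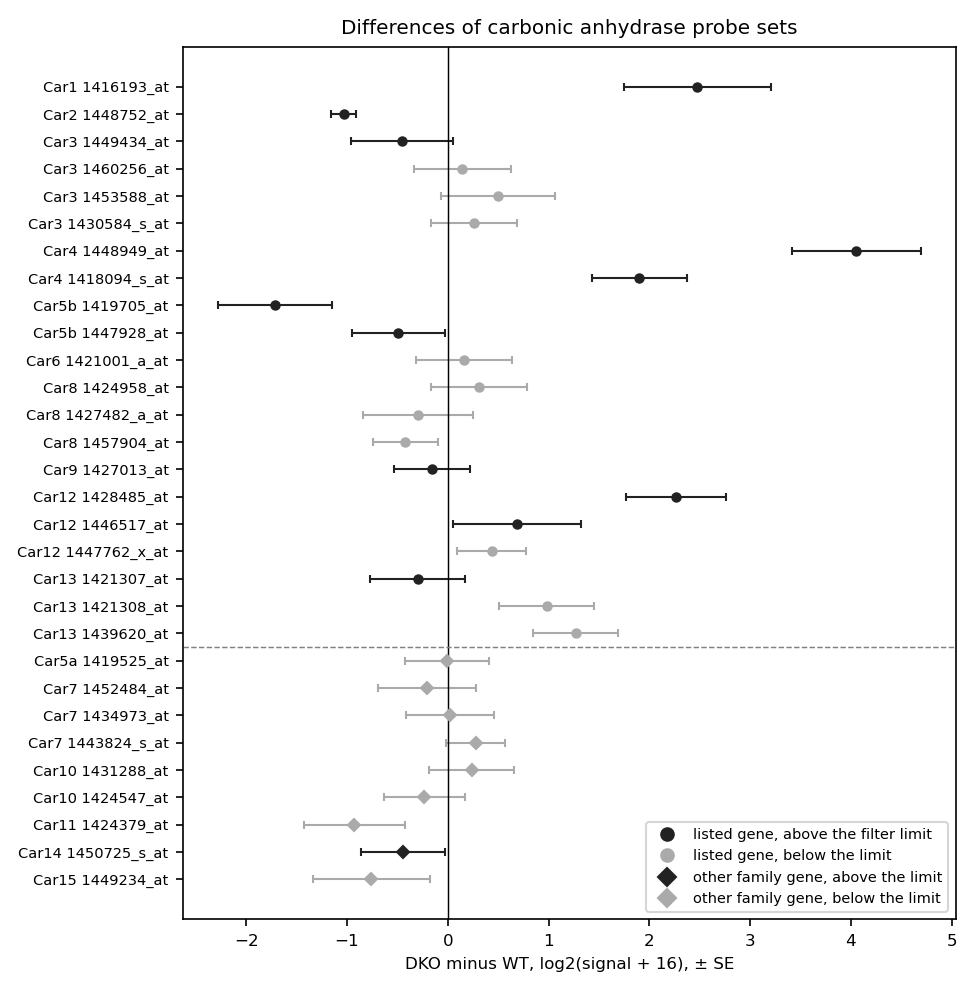
Difference of each carbonic anhydrase probe set, DKO minus WT on the log2(signal + 16) scale, with its standard error (3 arrays a group); circles above the dashed line are the 21 probe sets of the 10 genes, diamonds below it the 9 of the other family genes, and grey marks lie below the filter limit. The values run from 4.05 (Car4) to -1.71 (Car5b), and Car2, at -1.03, has the smallest error.

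The other family genes on the arrays, Car5a, Car7, Car10, Car11, Car14 and Car15, gave 9 probe sets of which 1, that of Car14, was above the limit. It read 202, 209 and 184 in WT and 225, 88.8 and 138 in DKO, and did not pass the threshold (-0.44 ± 0.42). In all 9 the groups overlapped, with 3 higher and 6 lower in DKO.

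A list of transporters, of which those of bicarbonate and protons carry what carbonic anhydrases make, gave no change past the threshold. Of 38 transporters and channels for bicarbonate, protons, lactate, water and ammonia on the list, 34 were on the arrays and 19 above the limit. Of the 19, 6 were higher and 13 lower, the median was -0.27 and 0 were past the threshold in limma (3 at an unadjusted p under 0.05). The smallest p-values were those of Slc4a1 (-2.25 ± 0.66, adjusted p = 0.138) and of the lactate and proton carrier Slc16a1 (0.67 ± 0.29, adjusted p = 0.321). Slc16a1 was highest in DKO replicate 1 and next in WT replicate 2, at 4519 and 4263. Without WT replicate 2 Slc16a1 passed (1.07 ± 0.20, adjusted p = 0.0237), and without WT replicate 3 Slc4a1 did (-3.22 ± 0.40, adjusted p = 0.00441). Among the subunits of the vacuolar proton pump, which works with Car2 in osteoclasts, 10 of 17 were higher and 7 lower, with a median of 0.01 and 0 past the threshold in limma (1 at an unadjusted p under 0.05). The smallest p-values were those of Atp6v1g2 (-1.52 ± 0.58, adjusted p = 0.251) and Atp6v0d1 (-0.32 ± 0.20, adjusted p = 0.509).

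The osteoclast list gave no common direction beside the lower Car2 signal. Of 6 tested genes Itgb3, an integrin chain that platelets and mast cells also use, rose (1.29 ± 0.27, adjusted p = 0.0409) and Dcstamp, a gene of cell fusion, fell (-3.03 ± 0.64, adjusted p = 0.0435). Of the same list, Ctsk, Calcr and Ocstamp were below the limit, at no more than 35.6 on any array. Acp5, Mmp9, Nfatc1 and Tcirg1 were above it and not past the threshold, with differences of -0.41, 0.19, -0.29 and 0.23.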

How the data were processed

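RNA of sorted marrow cells was measured on 3 WT and 3 DKO Affymetrix arrays, each a separate pool per the labels. The deposited table holds 1 linear intensity (MAS5 signal) per probe set, made with MAS5 per the submitters' processing notes; the trimmed mean with 2% left out at each end was 500 on every array, and this scaling was kept. Of 45037 probe sets without controls, 34945 had 1 gene symbol in the platform annotation, and all 21 probe sets of the 10 genes matched RefSeq by gene identifier. There were 0 columns of other samples.

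Signals became log2(signal + 16). Probe sets in the lowest 40% by mean were left out, and 27022 entered the limma fit (limma 3.58.1, R 4.3.3, eBayes with an intensity trend, two-sided, DKO against WT, Benjamini-Hochberg over all, threshold 0.05); the standard errors of dimmer probe sets come from a fit without the filter. "Rose" and "fell" mean past that threshold. Other genes are represented by their brightest probe set. The number of arrays limits the precision. The fit was tested on simulated data.

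The genes, the lists and the rules were chosen with earlier results of these data known. Named are all 10 genes; in each list, of the genes past the threshold, at most the 4 with the smallest p, and where none passed the 2 with the smallest p or counts alone; and the 3 nearest profiles of each isoform above the limit that ranges over at least 1 log2 unit. Xist, Kdm5d, Eif2s3y, Kit, Cd34, Ptprc, Rnase2a, Ctsk, Calcr, Ocstamp, Acp5, Mmp9, Nfatc1, Tcirg1, Cma1, Tpsb2 and Gata2 were added after their values were seen. The megakaryocyte, neutrophil, monocyte, stromal and adipocyte lists had 0, 0, 1 (Ccr2, 2.32 ± 0.26, adjusted p = 0.00152), 0 and 0 rises and 0 falls in limma, with 0, 1, 3, 0 and 0 genes at an unadjusted p under 0.05. Alternatives were offsets of 1 and 64, no filter or 60%, quantile normalization, median centring, no trend, weights by array quality, the replicate number as a block, leaving out each array and, for transporters, a threshold of 0.10 and means over probe sets. Same-numbered pools did not pair: their deviations from the group means correlated at 0.14, -0.03 and 0.05. Plots were made in Python 3.11.15 (matplotlib 3.10.9).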

Additional observations from a re-analysis of the deposited data

How the results depend on the processing

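The log2 differences of Car1, Car2, Car4, Car12 (brightest probe set) and Car5b kept their sign under all 15 alternatives. With median centring, which moves the median of all tested probe sets from -0.05 to 0.06, Car2 was at -0.93, and with an offset of 64 Car4 was at 2.88; in the other settings these 2 moved by less than the spread between pools. With 1 array left out Car2 lay between -1.09 and -0.97 and Car4 between 3.24 and 4.66. Of the 21 probe sets, 12 to 14 were higher in DKO in every setting. Probe sets of Car3, Car6, Car8, Car12 and Car13 changed sign in 1 or 2 settings; of those above the limit these were the brightest of Car13, at 0.02, and the second of Car12, at -0.05, both without DKO replicate 2. Transporters past the threshold numbered 0 in all settings except with an array left out, where they ranged from 0 to 1. The replicate block left 0 transporters past the threshold, Car2 at -1.03 and Car4 at 4.05, and 312 probe sets past it against 370 without the block. The number of carbonic anhydrase probe sets past the threshold, 2 in the fit described, was 0 without an intensity trend, 4 with array quality weights and 4 without WT replicate 2; over all probe sets the counts there were 88, 563 and 469. Signals near the floor limit what can be said of Car4 in WT, Car6 and Car8.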
